A study of Rattus norvegicus with 18 samples.

Results

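The genes described here are 10 receptors, adhesion molecules, a secreted factor and transcription factors of blood vessel endothelium, out of 15075 RefSeq identifiers with poly(A) RNA counts from rat dorsal root ganglia (DRG). They were taken by symbol, and each matched 1 row of the count table. *Flt4* and *Bcl6b* were chosen by the rise of their counts after injury in these same rats, so their differences between groups are given as a description with no test. Only their variation from rat to rat within groups, with the group means taken out, was tested. The other 8 (*Flt1*, *Kdr*, *Tie1*, *Tek*, *Cdh5*, *Pecam1*, *Egfl7* and *Sox18*) were taken as general endothelial genes.

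All 18 rats were adult Lister hooded animals, in 3 groups of 6. Naïve rats had no operation and no vector, bPYX+GFP rats had a bilateral pyramidotomy, which cuts both corticospinal tracts in the medulla, followed by AAV1 carrying GFP into the forelimb flexors of 1 side, and bPYX+NT3 rats had the same operation with AAV1 carrying human prepro-neurotrophin-3. The vectors used the CMV promoter, which is active in many cell types, and no group was operated without a vector, so that injury and the GFP vector cannot be told apart. Ganglia C6 to C8 of the treated side were pooled within each rat 10 weeks after injury, and each library is 1 rat. In whole ganglia a change in the number of endothelial cells and a change in RNA per cell cannot be told apart.

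Rats are named by the number in the heading of the count table, whose sample names match the group labels. The naïve rats were 41, 42, 43, 44, 45 and 49, the bPYX+GFP rats were 5, 15, 18, 21, 52 and 57, and the bPYX+NT3 rats were 2, 11, 17, 23, 39 and 40. The counts deposited separately for each rat were identical to the table for 18 of 18 rats but were attached to a sample of another group for 17 of them. Depth ranged from 10057787 to 16002410 read-pairs on genes per rat, and 30.8 to 34.6% of the read-pairs counted lay on no annotated feature. Rats 57 and 11 stood apart with the lowest of these no-feature shares, 31.7% and 30.8%, and results that rest on them are given with and without them. The 8 sensory neuron markers were all present, and their summed level ranged from 52983 to 75632 normalized read-pairs per rat, as did glial markers from 32270 to 42269.

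Blood vessels of the DRG are lined by endothelial cells, which receive growth signals through the VEGF receptors *Flt1*, *Kdr* and *Flt4* and stabilizing signals through the angiopoietin receptor *Tek* and its partner *Tie1*. VEGF-A binds *Flt1* and *Kdr*, whereas VEGF-C binds *Flt4*, which is abundant in lymphatic endothelium and is also found on growing blood vessels. *Cdh5* (VE-cadherin) and *Pecam1* (CD31) hold endothelial cells together at their junctions, *Egfl7* is secreted by endothelial cells, and *Sox18* and *Bcl6b* are transcription factors.

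RefSeq promoters were matched for 5 of the 10 members (*Flt4*, *Flt1*, *Kdr*, *Tie1* and *Egfl7*). The 250 bases before the start of *Flt4*, the picked receptor, and of the 3 general members that passed the unadjusted test in a comparison are shown 5′ to 3′ on the gene's strand, from RefSeq on build GRCr8. Capitals mark the letters GGAA or, for the other strand, TTCC, which form the core of ETS factor sites.
*Flt4*, chr10:34414584-34414833, plus strand: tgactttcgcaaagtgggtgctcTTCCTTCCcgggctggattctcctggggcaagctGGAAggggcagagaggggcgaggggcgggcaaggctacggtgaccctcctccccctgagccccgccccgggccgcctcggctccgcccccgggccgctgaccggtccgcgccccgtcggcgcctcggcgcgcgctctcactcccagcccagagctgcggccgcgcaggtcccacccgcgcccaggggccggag
*Flt1*, chr12:12333180-12333429, plus strand: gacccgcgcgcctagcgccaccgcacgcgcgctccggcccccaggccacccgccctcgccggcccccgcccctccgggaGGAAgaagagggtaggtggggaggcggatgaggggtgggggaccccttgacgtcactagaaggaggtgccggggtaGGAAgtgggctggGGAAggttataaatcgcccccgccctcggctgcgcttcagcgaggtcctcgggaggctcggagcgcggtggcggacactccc
*Tie1*, chr5:137304982-137305231, minus strand: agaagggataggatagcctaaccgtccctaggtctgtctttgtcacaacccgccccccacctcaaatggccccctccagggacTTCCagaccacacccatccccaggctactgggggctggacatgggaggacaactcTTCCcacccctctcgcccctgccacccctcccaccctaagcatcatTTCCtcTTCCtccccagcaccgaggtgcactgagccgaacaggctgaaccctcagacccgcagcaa
*Egfl7*, first start, chr3:29805381-29805630, plus strand: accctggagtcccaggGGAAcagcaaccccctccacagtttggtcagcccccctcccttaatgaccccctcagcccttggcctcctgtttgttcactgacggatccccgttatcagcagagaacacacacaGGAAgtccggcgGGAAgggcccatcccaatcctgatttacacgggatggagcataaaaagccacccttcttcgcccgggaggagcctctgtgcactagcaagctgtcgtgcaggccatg
*Egfl7*, second start, chr3:29808051-29808300, plus strand: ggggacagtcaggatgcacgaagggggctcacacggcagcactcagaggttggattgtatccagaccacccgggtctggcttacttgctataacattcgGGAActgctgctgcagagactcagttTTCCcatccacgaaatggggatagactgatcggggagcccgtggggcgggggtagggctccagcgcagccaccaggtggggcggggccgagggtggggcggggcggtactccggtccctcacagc

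GGAA on either strand was found 3 times before *Flt4* and *Flt1*, 4 times before *Tie1* and *Kdr*, and 3 and 2 times before the first and second start of *Egfl7*. Among 33469 RefSeq windows of the same length, 93.2% held it, with a median of 3 matches. The longer CCGGAA was found only before *Kdr*, 1 time, against 12.6% of all windows. GGGCGG, the GC box, occurred 3 times before *Flt4* and *Flt1*, 1 time before *Tie1* and *Kdr*, and 4 times before the second start of *Egfl7*, against a match in 30.5% of all windows. ACAAT, the SOX core, was found only before the second start of *Egfl7* (30.0% of all windows). These are matches of letters and describe the windows only.

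Levels are given as normalized read-pairs, each count rescaled to 1 common library size, the average TMM-scaled size of the 18 rats. They are not divided by transcript length and are not compared between genes. Each pair of groups was tested in its own edgeR quasi-likelihood fit over all genes with more than 10 read-pairs in at least 6 of the 12 rats, and a gene was called at an unadjusted p under 0.05, the threshold used in the study. Of all genes tested, 377, 703 and 201 were called for bPYX+GFP against naïve, bPYX+NT3 against naïve and bPYX+NT3 against bPYX+GFP, and 0% stayed under 0.05 after Benjamini-Hochberg adjustment over all genes. The likelihood ratio test of edgeR gave 13, 0 and 0 such genes and DESeq2 gave 12, 0 and 0 in the same order. *Sox18* failed the filter, so that 7 of the 8 general members were tested. The 2 comparisons with naïve rats share the same 6 naïve rats, and the 2 comparisons with bPYX+GFP rats share those.

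Of the 7 general members tested, 1 (*Tie1*) was called between bPYX+GFP and naïve rats and was higher after injury, where 3.25% of all genes were called in either direction, 0.733% higher and 2.52% lower. Between bPYX+NT3 and naïve rats 2 of the 7 (*Egfl7* and *Flt1*) were called, both higher, against 6.01% of all genes in either direction, 3.09% higher and 2.92% lower. In bPYX+NT3 against bPYX+GFP rats 0 of the 7 were called, and 1.73% of all genes were, 1.08% higher and 0.654% lower. The smallest unadjusted p of the 7 in that last comparison was 0.118 in edgeR. The median log2 fold change of the 7 was 0.17, 0.28 and 0.05 in this order, and that of all genes tested was 0.01, 0.00 and 0.00. The sign was positive for 6, 7 and 5 of the 7 and for 56.1%, 50.1% and 51.3% of all genes tested. Some of the 7 varied together from rat to rat, so that their signs are not independent. The called members had edgeR adjusted p of 0.9998 (*Tie1*) and 0.607 (*Egfl7* and *Flt1*). The groups overlapped for each of the 8 general members in each comparison, and the share of all genes whose first group lay wholly above the second was 0.0345%, 0.103% and 0.0516%.

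**Figure D1:**
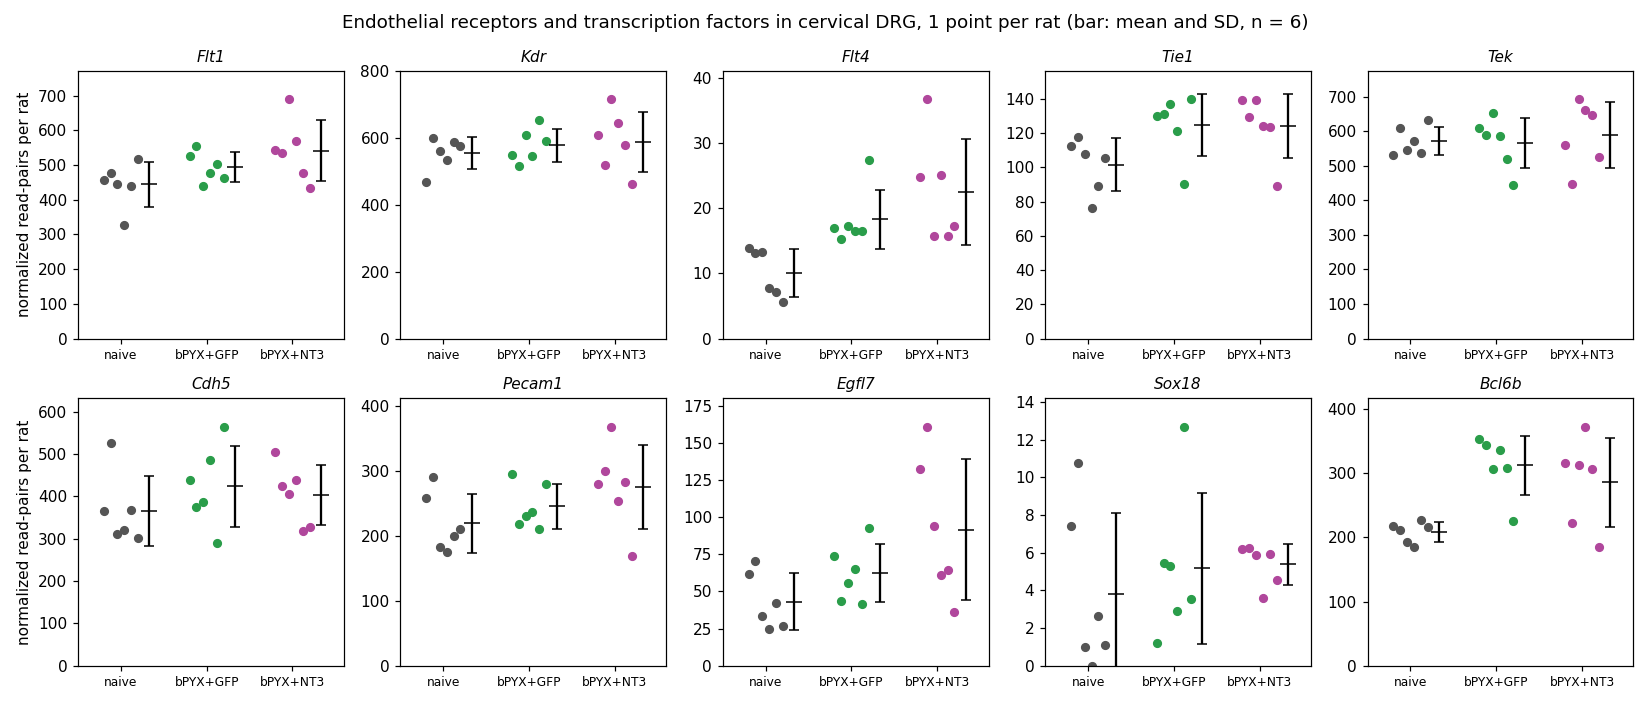
Normalized read-pairs of the 10 members on linear axes that start at 0, with 1 point per rat, grey for naïve, green for bPYX+GFP and purple for bPYX+NT3, and the mean and SD of each group of 6 beside the points (the lower bar of naïve *Sox18* ends at the axis). *Flt4* is the member whose naïve rats (highest 14.0) all lie under all rats of both injured groups (lowest 15.2), and *Egfl7* spreads most widely in bPYX+NT3 rats (36.3 to 161).

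*Flt1* (NM_019306), a VEGF receptor that binds VEGF-A, VEGF-B and placental growth factor, had 326 (rat 44), 451 and 518 normalized read-pairs as lowest, median and highest of the naïve rats. In bPYX+GFP rats these values were 440.1, 491 and 555, and in bPYX+NT3 rats 433, 538 and 689. The 3 groups overlapped, with 5 of 6 rats of each injured group above the naïve median and rat 17 the highest of all. The log2 fold change against naïve was 0.16 (SE 0.10, p = 0.123) in bPYX+GFP and 0.28 (SE 0.12, p = 0.0326) in bPYX+NT3 rats in edgeR, and an exact permutation test of 6 against 6 rats gave p = 0.134 and p = 0.0476. The call in bPYX+NT3 rats was kept in 8 of 12 leave-one-rat-out fits. Between the injured groups the log2 fold change was 0.13 (SE 0.10).

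*Kdr* (NM_013062), the main signalling receptor for VEGF-A in blood endothelium, ranged from 469.9 to 601 in naïve rats (median 568), from 517 to 655 in bPYX+GFP rats (median 571) and from 461 to 715 in bPYX+NT3 rats (median 594). The groups lay over one another, and the bPYX+NT3 range held both of the other ranges. The log2 fold changes were 0.06 (SE 0.07), 0.08 (SE 0.10) and 0.02 (SE 0.10) for bPYX+GFP against naïve, bPYX+NT3 against naïve and bPYX+NT3 against bPYX+GFP, none called.

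*Flt4* (NM_053652), the receptor for VEGF-C and VEGF-D, had few reads, 5 to 17 counts in naïve, 13 to 31 in bPYX+GFP and 16 to 47 in bPYX+NT3 rats. In normalized read-pairs the lowest, median and highest were 5.56 (rat 49), 10.4 and 14.0 in naïve, 15.2, 16.7 and 27.4 (rat 57) in bPYX+GFP, and 15.7, 20.98 and 36.7 (rat 11) in bPYX+NT3 rats. Every rat of both injured groups lay above every naïve rat, which is part of what *Flt4* was picked for, while the injured groups overlapped. Genes like this made up 0.0345% of those tested for bPYX+GFP and 0.103% for bPYX+NT3 rats. The fitted fold against naïve was 1.80 in bPYX+GFP (log2 0.85, SE 0.26) and 2.20 in bPYX+NT3 rats (log2 1.14, SE 0.29), and the log2 fold change between the injured groups was 0.29 (SE 0.25). Without rats 57 and 11 these log2 fold changes were 0.67, 0.93 and 0.25, and they were 0.81, 0.90 and 0.11 when the no-feature share was a covariate. Between the injured groups the log2 fold change was 0.08 without rat 11 alone and 0.46 without rat 57 alone. At these counts the counting error alone is large.

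The markers of lymphatic endothelium, where *Flt4* is abundant, did not show a common direction beside it. Of 6 lymphatic markers with counts, 4 were tested. Between bPYX+GFP and naïve rats 0 were called higher and 2 lower, against 0.733% and 2.52% of all genes. Other cells of the ganglion can also express the 2 that were lower. *Pdpn* (podoplanin) ranged from 1089 to 1496 in naïve and from 978 to 1212 in bPYX+GFP rats, with a log2 fold change of -0.29 (SE 0.09, edgeR unadjusted p = 0.00503). *Reln* (reelin) was lower by a log2 fold change of -0.16 (SE 0.06, edgeR unadjusted p = 0.0230), a call kept in 8 of 12 leave-one-rat-out fits, against 12 of 12 for *Pdpn*. *Lyve1*, a hyaluronan receptor of lymphatic endothelium and macrophages, had log2 fold changes of -0.11 (SE 0.15) in bPYX+GFP and -0.12 (SE 0.20) in bPYX+NT3 rats against naïve. *Ccl21*, a chemokine of lymphatic endothelium, had 0.30 (SE 0.41) and 0.67 (SE 0.34, edgeR unadjusted p = 0.0710). *Prox1*, the factor that defines lymphatic identity, was at or below 10.7 normalized read-pairs in every rat and failed the filter, as did *Stab2*. Without rat 21 the lymphatic count was 1, without rat 57 it was 2, and between the injured groups 2 were called without rats 57 and 11. Summed over the 6 markers, the level ranged from 5596 to 6075 in naïve, from 4673 to 5364 in bPYX+GFP and from 5184 to 6019 in bPYX+NT3 rats, most of it from *Reln* (3708 to 4525 in naïve and 3350.4 to 3875 in bPYX+GFP rats) and *Pdpn*, and the part of lymphatic cells in the *Flt4* values was not tested.

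The ligands of these receptors differed among themselves between bPYX+GFP and naïve rats. All 3 of the ligands tested were called, 2 higher and 1 lower, against 0.733% and 2.52% of all genes. *Vegfa*, the gene of VEGF-A, was not among the genes with counts matched by symbol, so that its level is not known here. *Vegfc*, a ligand of *Flt4*, had 40.01, 50.8 and 66.0 normalized read-pairs as lowest, median and highest of naïve rats and 54.8, 69.5 and 83.8 of bPYX+GFP rats, which overlapped (log2 fold change 0.41, SE 0.16, edgeR unadjusted p = 0.0236). *Pgf*, placental growth factor, a ligand of *Flt1*, went from 42.7, 50.2 and 81.9 to 63.8, 75.1 and 98.1, also overlapping (0.47, SE 0.18, unadjusted p = 0.0201 in edgeR). *Vegfb*, another ligand of *Flt1*, was lower, with 488, 648 and 788 in naïve and 461, 503 and 554 in bPYX+GFP rats (-0.32, SE 0.10, unadjusted p = 0.00633 in edgeR). The calls of *Pgf* and *Vegfb* were kept in 12 of 12 leave-one-rat-out fits and that of *Vegfc* in 7 of 12. Against naïve, bPYX+NT3 rats had log2 fold changes of 0.24 (SE 0.18) for *Vegfc*, 0.32 (SE 0.19) for *Pgf* and -0.21 (SE 0.13) for *Vegfb*, none called. Between the injured groups 0 of the 3 were called. The edgeR adjusted p of the calls in bPYX+GFP rats was 0.859 (*Vegfb*) and 0.9998 (*Pgf* and *Vegfc*). The smallest of a ligand in any comparison was 0.607, in bPYX+NT3 against naïve rats. *Vegfd* failed the filter in each comparison. Of the co-receptors *Nrp1* and *Nrp2*, which bind VEGF and semaphorins, 0 of 2 were called in each comparison.

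**Figure D2:**
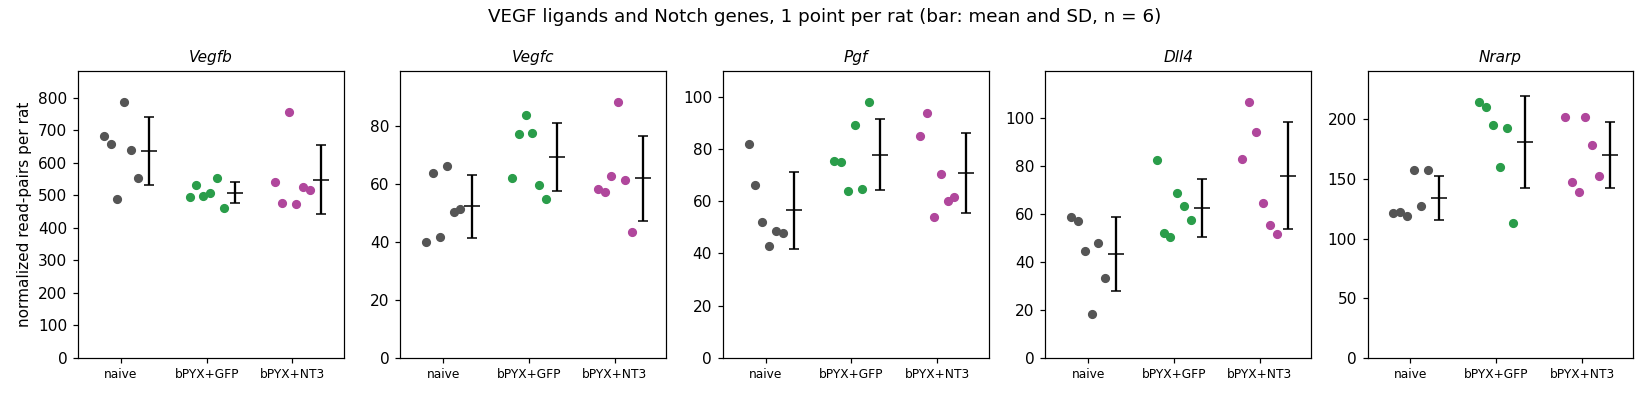
Normalized read-pairs of 3 VEGF ligands and of the Notch ligand *Dll4* and the Notch target *Nrarp*, on linear axes that start at 0, with 1 point per rat and the mean and SD of each group of 6. *Vegfb* is lower and *Vegfc* and *Pgf* are higher in bPYX+GFP than in naïve rats, with overlap, and the lowest *Dll4* value of all rats (18.1) is in a naïve rat.

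*Tie1* (NM_053545), the partner of *Tek* in angiopoietin signalling, had 76.4 (rat 44), 107 and 118 normalized read-pairs as lowest, median and highest of naïve rats. The values were 90.1 (rat 52), 131 and 139.7 in bPYX+GFP rats and 88.8 (rat 40), 127 and 139.6 in bPYX+NT3 rats. In each injured group 5 of 6 rats lay above the highest naïve rat and 1 fell within the naïve range. The log2 fold change against naïve was 0.30 (SE 0.13, p = 0.0406, called) in bPYX+GFP and 0.29 (SE 0.14, p = 0.0527) in bPYX+NT3 rats in edgeR, and exact permutation tests gave p = 0.0584 and p = 0.0693. The call was kept in 4 of 12 leave-one-rat-out fits, and without rat 57 the log2 fold change was 0.26 (unadjusted p = 0.0782 in edgeR). Between the injured groups the log2 fold change was -0.01 (SE 0.14), and its sign was positive with library size alone as the scaling.

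*Tek* (NM_001105737), the angiopoietin receptor TIE2, ranged from 531 to 631 in naïve rats (median 559), from 446 to 652 in bPYX+GFP rats (median 587) and from 447 to 692 in bPYX+NT3 rats (median 605). Rats 57 and 11 had the lowest values of their groups and lay under every naïve rat, and the groups overlapped. The log2 fold changes were -0.01 (SE 0.08), 0.04 (SE 0.10) and 0.05 (SE 0.11) in the order used above, none called, and without rats 57 and 11 they were 0.05, 0.11 and 0.06. Of its ligands *Angpt1* and *Angpt2*, 0 of 2 were called in each comparison, and *Angpt4* failed the filter.

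*Cdh5* (NM_001107407) had 302, 343 and 526 (rat 42) normalized read-pairs as lowest, median and highest of naïve rats, 289, 413 and 565 (rat 57) of bPYX+GFP rats and 318, 415 and 505 of bPYX+NT3 rats. All 3 groups overlapped over most of their ranges. The log2 fold changes were 0.22 (SE 0.17), 0.14 (SE 0.15) and -0.08 (SE 0.16), none called. Without rat 42 the first 2 were 0.35 (unadjusted p = 0.0317) and 0.28 (unadjusted p = 0.0395) in edgeR, and without rat 57 the first was 0.11 (unadjusted p = 0.473).

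*Pecam1* (NM_031591) ranged from 175 to 289.7 in naïve rats (median 204), from 211 to 295 in bPYX+GFP rats (median 233) and from 169 to 367 in bPYX+NT3 rats (median 281). The groups overlapped, and the lowest and the highest of all rats were both bPYX+NT3 rats, 40 and 17. The log2 fold changes were 0.17 (SE 0.14), 0.33 (SE 0.17, unadjusted p = 0.0751 in edgeR) and 0.16 (SE 0.16), none called. Without rat 40 the second was 0.44 (unadjusted p = 0.00783 in edgeR) and the third 0.27 (unadjusted p = 0.0460). Without rat 17 they were 0.24 (unadjusted p = 0.172 in edgeR) and 0.07. The second was called in 2 of 12 and the third in 1 of 12 leave-one-rat-out fits.

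*Egfl7* (NM_139104), a secreted factor of endothelial cells that acts on vessel formation, had 24.6, 38.0 and 70.7 normalized read-pairs as lowest, median and highest of naïve rats. In bPYX+GFP rats the values were 41.9, 60.4 and 92.8, and in bPYX+NT3 rats 36.3 (rat 40), 79.1 and 161 (rat 11). Rats 2, 11 and 17 of the bPYX+NT3 group lay above every naïve rat, and rat 40 lay below the naïve median. The fold against naïve was 2.09 in bPYX+NT3 rats (log2 1.07, SE 0.36, edgeR unadjusted p = 0.00988, exact permutation p = 0.0411), and the call was kept in 12 of 12 leave-one-rat-out fits, with log2 fold changes from 0.82 (without rat 11) to 1.28 (without rat 42). When the no-feature share was a covariate the log2 fold change was 0.72 (unadjusted p = 0.0209 in edgeR). In bPYX+GFP rats the log2 fold change against naïve was 0.52 (SE 0.28, unadjusted p = 0.0867) and between the injured groups 0.56 (SE 0.33, unadjusted p = 0.118) in edgeR. Without rat 40 the latter was 0.72 (unadjusted p = 0.0292), called in that 1 of 12 leave-one-rat-out fits only, and without rat 11 it was 0.30. Without rat 57 the log2 fold change of bPYX+GFP against naïve rats was 0.35 (unadjusted p = 0.220 in edgeR). *Egfl7* was also the tested member with the widest relative spread, with a coefficient of variation of 43.9% (naïve), 31.3% (bPYX+GFP) and 51.8% (bPYX+NT3), against 7.15%, 12.9% and 16.0% for *Tek*.

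**Figure D3:**
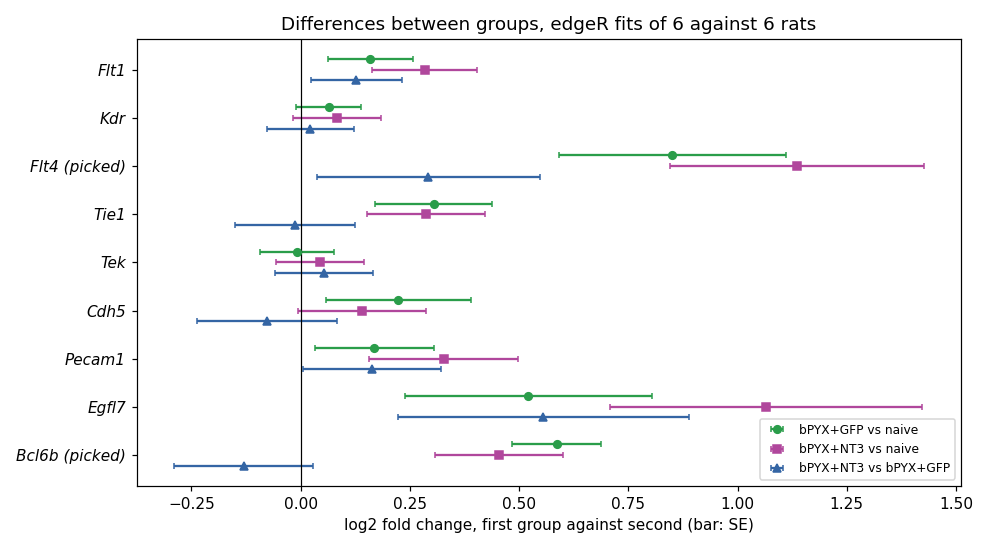
Log2 fold changes of the 9 members that passed the filter, with bars of 1 SE from edgeR fits of 6 against 6 rats, circles for bPYX+GFP against naïve, squares for bPYX+NT3 against naïve and triangles for bPYX+NT3 against bPYX+GFP. Beside the picked *Flt4* and *Bcl6b*, *Egfl7* lies farthest from 0 (1.07 in bPYX+NT3 against naïve rats), and *Kdr* and *Tek* lie near 0.

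*Sox18* (NM_001024781), a transcription factor of developing vessels, had 0 to 14 counts in naïve, 1 to 10 in bPYX+GFP and 3 to 8 in bPYX+NT3 rats, too few for the fit. Exact permutation tests on log2 CPM gave p = 0.407, 0.167 and 0.571 in the order used above, so that no difference was detected. *Bcl6b* (NM_001108279), a transcriptional repressor related to BCL6, had 185, 213 and 227 normalized read-pairs as lowest, median and highest of naïve rats, 225 (rat 57), 322 and 353.5 of bPYX+GFP rats and 185 (rat 40), 309.7 and 372 of bPYX+NT3 rats. In bPYX+GFP 5 of 6 rats and in bPYX+NT3 4 of 6 rats lay above every naïve rat, whereas rats 57, 11 (222) and 40 did not. Its fold was 1.50 in bPYX+GFP (log2 0.59, SE 0.10) and 1.37 in bPYX+NT3 rats (log2 0.45, SE 0.15) against naïve, and the log2 fold change between the injured groups was -0.13 (SE 0.16). Without rats 57 and 11 these log2 fold changes were 0.66, 0.52 and -0.15.

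Rats 57 and 11 thus had the highest *Flt4* of their groups together with *Bcl6b* near naïve levels and the lowest *Tek*. Relative to the mean log2 CPM of the 8 general members in the same rat, *Flt4* was -3.67 ± 0.39 for naïve, -3.12 ± 0.23 for bPYX+GFP and -2.99 ± 0.44 for bPYX+NT3 rats (SD, n = 6). On this scale the naïve rats reached up to -3.12 (rat 43) and the bPYX+NT3 rats down to -3.64 (rat 17), so that the groups overlapped. *Bcl6b* was 0.51 ± 0.26, 0.84 ± 0.29 and 0.58 ± 0.31 on it, with the bPYX+GFP rats from 0.29 to 1.05 and the naïve rats from 0.06 to 0.75. Without *Sox18* in the mean, *Bcl6b* was -0.20 ± 0.17, 0.16 ± 0.31 and -0.09 ± 0.29, and with a prior count of 0.5 it was 0.61 ± 0.33, 0.90 ± 0.30 and 0.63 ± 0.31, so that the offset of bPYX+NT3 against naïve rats moved with both choices and stayed within the SD. These offsets hold different transcript lengths, so that only their differences between groups can be read.

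**Figure D4:**
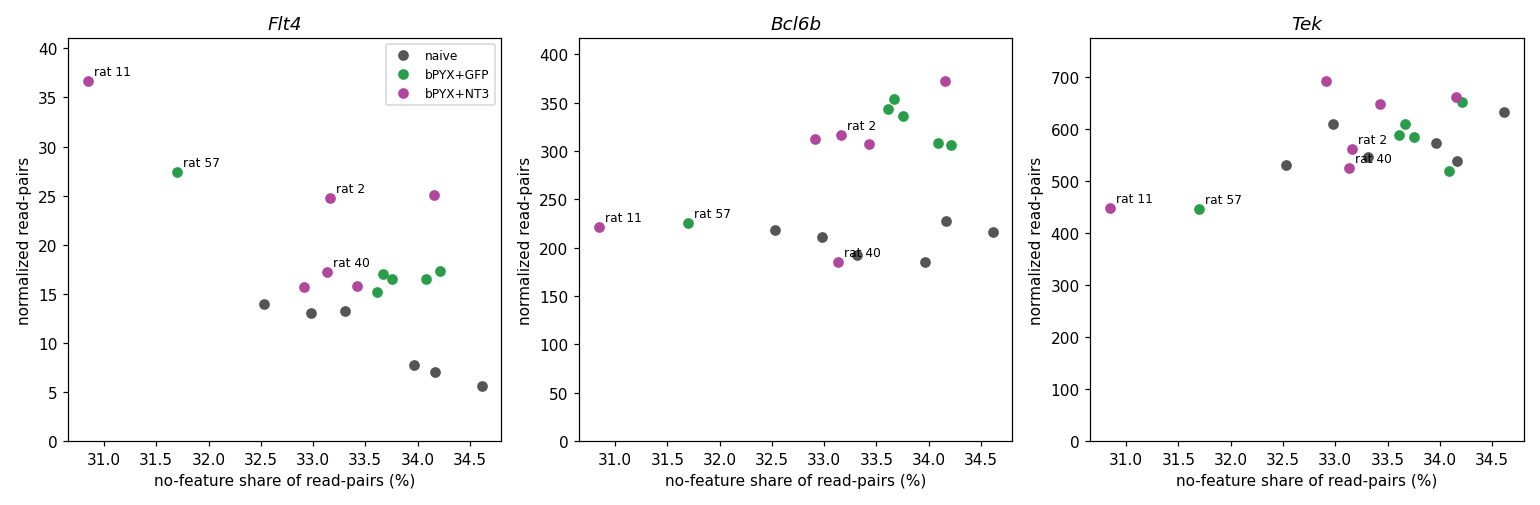
Normalized read-pairs of *Flt4*, *Bcl6b* and *Tek* (vertical axes, from 0) against the share of counted read-pairs on no annotated feature (horizontal axes, percent), with 1 point per rat coloured by group. Rats 57 and 11, at 31.7% and 30.8%, have the highest *Flt4* values (27.4 and 36.7) and the lowest *Tek* values (446 and 447) of the 18 rats.

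Within groups, the level of some members varied together from rat to rat. After the group mean was taken from log2 CPM, 45 pairs of members were correlated over the 18 rats, with 100000 permutations of the rats within groups and Benjamini-Hochberg adjustment over the 45 pairs, and 4 pairs had an adjusted p under 0.05 for Pearson's r. *Pecam1* and *Egfl7* had r = 0.80 (permutation p = 0.00058, adjusted 0.0087) and Spearman's rho = 0.78 (p = 0.00056, adjusted 0.0126). *Cdh5* and *Egfl7* had r = 0.76 (permutation p = 0.00019, adjusted 0.00855) and rho = 0.78 (p = 0.00044, adjusted 0.0126). *Tie1* and *Pecam1* had r = 0.76 (permutation p = 0.00046, adjusted 0.0087) and rho = 0.68 (p = 0.00476, adjusted 0.0536), and *Tie1* and *Egfl7* had r = 0.69 (p = 0.0024, adjusted 0.027) and rho = 0.72 (p = 0.00314, adjusted 0.0471). Without the 2 rats farthest from the median of the first gene these r were 0.79, 0.74, 0.64 and 0.55. *Flt4* and *Tek* had r = -0.59 (permutation p = 0.0116, adjusted 0.0653) and rho = -0.45 (p = 0.0757, adjusted 0.294), and without rats 11 and 57 r was -0.26, so that this relation rested on those rats. *Tek* and *Bcl6b* had r = 0.71 (permutation p = 0.0107, adjusted 0.0653) and rho = 0.61 (p = 0.0249, adjusted 0.124), and r = 0.53 without the same rats. *Flt4* and *Egfl7* had r = 0.67 (permutation p = 0.00827, adjusted 0.0653) and rho = 0.62 (p = 0.0179, adjusted 0.124), and r = 0.53 without those rats.

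Some members also varied with the no-feature share within groups. Over the 18 rats, with permutation p-values adjusted over the 10 members, r was -0.76 for *Flt4* (p = 0.00134, adjusted 0.0134), 0.73 for *Tek* (p = 0.0042, adjusted 0.014) and -0.68 for *Egfl7* (p = 0.00364, adjusted 0.014), and rho was -0.56, 0.47 and -0.63 (permutation p = 0.0285, 0.0608 and 0.0102, adjusted 0.115, 0.152 and 0.102). Without rats 11 and 57 these r were -0.57, 0.34 and -0.54. *Bcl6b* had r = 0.55 (permutation p = 0.0396, adjusted 0.0989) and rho = 0.30 (p = 0.240, adjusted 0.301), and r = 0.21 without the same rats. With the share regressed out of each member, r was 0.78 for *Pecam1* and *Egfl7*, 0.70 for *Cdh5* and *Egfl7*, 0.72 for *Tie1* and *Pecam1* and 0.66 for *Tie1* and *Egfl7*, whereas it was 0.33 for *Flt4* and *Egfl7*, 0.54 for *Tek* and *Bcl6b* and -0.09 for *Flt4* and *Tek*. Some pairs not named above rose when the share was regressed out, among them *Pecam1* and *Bcl6b* (0.37 to 0.78) and *Egfl7* and *Bcl6b* (0.08 to 0.75). *Tek* and *Pecam1* (0.17 to 0.75) and *Tie1* and *Tek* (0.21 to 0.71) did so too, whereas *Flt4* and *Pecam1* fell (0.31 to 0.00). The values after regression carry no test. The part of tissue composition in these relations was not tested.

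**Figure D5:**
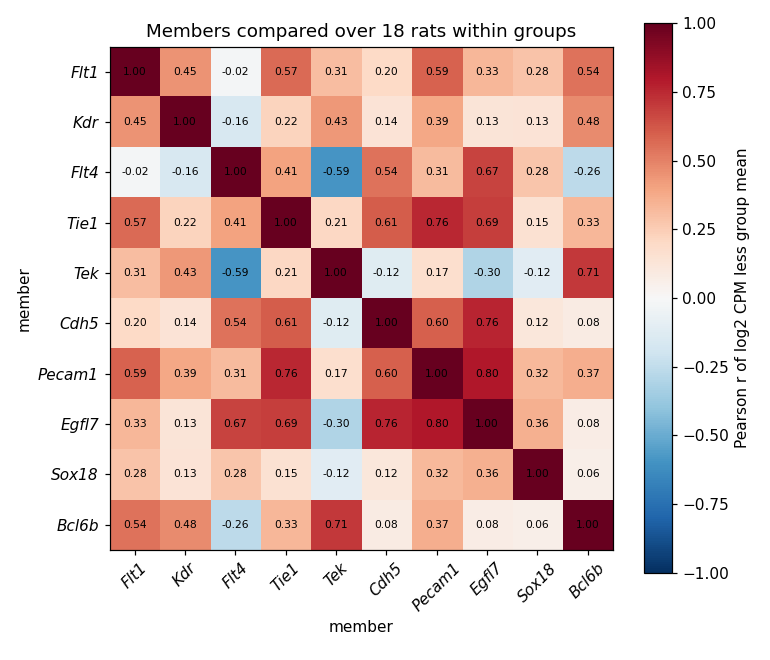
Pearson's r of each pair of members over 18 rats, from log2 CPM less the group mean, with the value in each cell and a colour scale from -1 (blue) to 1 (red). *Tie1*, *Cdh5*, *Pecam1* and *Egfl7* have high values with one another (0.60 to 0.80), *Tek* and *Bcl6b* have 0.71, and *Flt4* and *Tek* have the lowest value (-0.59).

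Among 11534 other genes tested in all comparisons, the 10 whose levels within groups were most like the mean of the 8 general members over the 18 rats were *Clic4* (Pearson's r = 0.86), *Anks3* (0.84), *Icam1* (0.84), *Lrp5* (0.83), *Tagln* (0.81), *Shank3* (0.81), *Ace* (0.81), *Ppp1r10* (0.80), *Plau* (0.79) and *Lbp* (0.79). Without rats 42 and 40, the farthest from the median, these r ranged from 0.64 (*Lbp*) to 0.82 (*Shank3*). Of the 10, 4 were also among the 10 highest without *Sox18* in the mean and 3 by Spearman's rho, so that the order of this list is loose.

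Other genes of vessels were described from lists by their counts and medians. For comparison, 0.733% of all genes were called higher and 2.52% lower between bPYX+GFP and naïve rats. The shares were 3.09% and 2.92% for bPYX+NT3 against naïve rats and 1.08% and 0.654% between the injured groups. Of 16 other endothelial receptors and adhesion genes tested, 0 were called higher and 1 lower between bPYX+GFP and naïve rats, 3 higher and 0 lower in bPYX+NT3 against naïve rats, and 0 between the injured groups. The 3 calls became 1 without rat 11, 0 when the no-feature share was a covariate and 1 with library size alone as the scaling. Their median log2 fold changes were 0.07, 0.18 and 0.14. *Plvap*, which forms the diaphragms of fenestrated endothelium, had 11.1, 17.9 and 24.6 normalized read-pairs as lowest, median and highest of naïve rats and 19.1, 27.5 and 38.2 of bPYX+NT3 rats (log2 fold change 0.62, SE 0.23, edgeR unadjusted p = 0.0173), and the groups overlapped. *Vwf* (von Willebrand factor) differed by 0.41 on the log2 scale (SE 0.18, unadjusted p = 0.0396 in edgeR) and *Nos3* (endothelial nitric oxide synthase) by 0.57 (SE 0.26, unadjusted p = 0.0480). Both were called in 5 of 12 leave-one-rat-out fits. *Calcrl*, the receptor for CGRP and adrenomedullin, was lower between bPYX+GFP and naïve rats (-0.22, SE 0.10, unadjusted p = 0.0421 in edgeR, called in 4 of 12 such fits).

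Of 15 other endothelial transcription factors tested, 1 was called, *Fli1*, an ETS factor, which was higher in bPYX+GFP than in naïve rats (log2 fold change 0.28, SE 0.11, edgeR unadjusted p = 0.0258). Its values were 78.3, 81.8 and 101 normalized read-pairs as lowest, median and highest of naïve and 87.5, 109.8 and 114 of bPYX+GFP rats, which overlapped. The call was kept in 7 of 12 leave-one-rat-out fits, and 0 of the 15 were called without rat 15. The median log2 fold change of the 15 was 0.02, 0.01 and -0.05 in the 3 comparisons, where 3.25%, 6.01% and 1.73% of all genes were called. *Klf2* and *Lmo2* had 3 or fewer counts in every rat.

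Of 9 Notch genes of vessels tested, 2 were called higher and 0 lower than naïve in each injured group, and 0 between the injured groups. Of all genes, 0.733%, 3.09% and 1.08% were called higher in the 3 comparisons. The median log2 fold change of the 9 was 0.10, 0.16 and -0.03 in the same order. *Dll4*, the Notch ligand of endothelial tip cells and arteries, had 18.1, 46.2 and 58.6 normalized read-pairs as lowest, median and highest of naïve rats, 50.5, 60.4 and 82.6 of bPYX+GFP rats and 51.7, 73.7 and 107 of bPYX+NT3 rats. The log2 fold change against naïve was 0.52 (SE 0.23, unadjusted p = 0.0422) in bPYX+GFP and 0.80 (SE 0.26, unadjusted p = 0.00808) in bPYX+NT3 rats in edgeR, called in 5 and 12 of 12 leave-one-rat-out fits. *Nrarp*, a Notch target that dampens Notch signalling, had 119, 125 and 158 in naïve, 113, 194 and 215 in bPYX+GFP and 139, 165 and 202 in bPYX+NT3 rats. Against naïve the log2 fold changes were 0.44 (SE 0.15, unadjusted p = 0.0109) and 0.35 (SE 0.13, unadjusted p = 0.0157) in edgeR, called in 12 of 12 such fits in each injured group. The edgeR adjusted p of these genes was 0.607 in bPYX+NT3 and 0.9998 in bPYX+GFP rats.

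Markers of other cell types also differed between groups, and their part in the values above was not tested. For comparison, 0.733% of all genes were called higher and 2.52% lower in bPYX+GFP against naïve rats. The shares were 3.09% and 2.92% in bPYX+NT3 against naïve rats and 1.08% and 0.654% between the injured groups. Of 11 mural cell markers tested between the injured groups, 2 were called higher in bPYX+NT3 rats (*Acta2*, smooth muscle actin, log2 fold change 0.56, SE 0.26, and *Cnn1*, calponin, 1.52, SE 0.54) and the median was 0.40. The *Acta2* call (edgeR unadjusted p = 0.0499) was kept in 4 of 12 leave-one-rat-out fits and that of *Cnn1* (unadjusted p = 0.0140) in 11 of 12. The number of mural markers called ran from 0 (without rat 17) to 7 (without rat 57) in those fits and was 5 without rats 57 and 11 together. Their summed level ranged from 2109 to 4058 in naïve, from 2107 to 3139 in bPYX+GFP and from 2190.1 to 3957 in bPYX+NT3 rats. Of 4 adipocyte markers tested, 1 (*Lpl*, lipoprotein lipase) was called lower in bPYX+GFP than in naïve rats (-0.40, SE 0.17, edgeR unadjusted p = 0.0328, kept in 6 of 12 leave-one-rat-out fits). In bPYX+NT3 rats 2 were called lower than naïve (*Lpl*, kept in 12 of 12, and *Adipoq*, kept in 9 of 12) and 3 lower than bPYX+GFP (*Adipoq*, *Pck1* and *Fabp4*). Of these 3, *Adipoq* was kept in 12 of 12 and *Fabp4* in 11 of 12 fits, and *Pck1* passed the filter in only 6, all called. Without rat 5, which had 205 (*Pck1*) and 737 (*Fabp4*) against bPYX+GFP medians of 16.9 and 80.3, only 1 adipocyte marker was called. Summed levels ranged from 502 to 1460.1 in naïve, from 375 to 1873 in bPYX+GFP and from 338 to 717 in bPYX+NT3 rats, and *Cidec* had 3 or fewer counts in every rat. Of 6 fibroblast and perineurial markers, 2 were called lower than naïve in each injured group, *Col1a1* and *Lum* in bPYX+GFP and *Col1a1* and *Dcn* in bPYX+NT3 rats. The *Lum* call (-0.23, SE 0.10, edgeR unadjusted p = 0.0316) was kept in 7 of 12 leave-one-rat-out fits and the *Dcn* call (-0.28, SE 0.13, unadjusted p = 0.0484) in 4 of 12, whereas *Col1a1* was called in 12 of 12 against naïve in each injured group. *Col1a1* (type I collagen) had a log2 fold change of -0.49 (SE 0.12) and -0.34 (SE 0.12). Their summed level ranged from 23601 to 32870 in naïve, from 23021 to 29621 in bPYX+GFP and from 18691 to 31048 in bPYX+NT3 rats. Of 6 macrophage markers, 2 erythroid markers and 8 sensory neuron markers, 0 were called in each comparison.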

How the data were processed

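The authors sequenced poly(A) RNA of 18 rats (TruSeq Stranded kit, paired-end reads), aligned it to Rnor_6.0 with TopHat2, removed duplicates with Picard and counted read-pairs per RefSeq identifier with HTSeq. The deposited values are raw counts, not normalized. The sample names of the table heading gave each rat its group. RefSeq paired 14193 of 15075 identifiers with a symbol, and that of *Egfl7* was named from the study's own table. Read-pairs that HTSeq assigned to no gene (no-feature 30.8 to 34.6%, ambiguous 2.79 to 3.41%, not unique 19.0 to 22.3%) entered neither library sizes nor tests. Reads on several locations were not counted, so that genes with near-identical copies are uncertain. The strand setting of HTSeq is not given in the sources used here.

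Each pair of groups was fitted with edgeR 4.0.16 in R 4.3.3 (TMM, estimateDisp, glmQLFit, glmQLFTest, no covariate) over genes with more than 10 counts in at least 6 of 12 rats, with Benjamini-Hochberg adjustment. SE was taken as the absolute log2 fold change over the root of the F statistic. Exact permutation tests were two-sided over the 924 splits of 6 against 6 rats on log2 CPM (prior count 2), and 0.00216 is the smallest p they allow. Python 3.11.15, pandas 2.3.3, NumPy 2.4.6 and SciPy 1.17.1 were used, and the fits were tested on simulated data. Rats are separate animals, and p-values cover the spread between them.

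The members, gene lists and tests were chosen with earlier results of these data known. Named genes are the 10 members, up to 4 genes per list with the smallest unadjusted p under 0.05 in any comparison, and the 10 genes most like the mean of the 8 general members. Alternatives were the likelihood ratio test, DESeq2 1.42.0, its size factors, library size alone, no filter, filterByExpr, 1 fit over the 3 groups, the no-feature share as a covariate, the groups of the samples to which the single count files are attached, leaving out each rat, the replicate block and a prior count of 0.5. Leaving out rats 57 and 11 together, leaving *Sox18* out of the mean and regressing the no-feature share out of each member were chosen after seeing the data.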

Additional observations from a re-analysis of the deposited data

Results flagged for a closer look

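For 30 sets of 6 rats (10 members in 3 groups), the distance of the highest or lowest rat from its nearest neighbour was compared with the range of the group (Dixon's criterion), and 6 sets had a rat apart. Chance gives about 1 in 20 for a single set of normally distributed values. The sets hold the same rats and some members vary together, so they are not independent, and 6 of 30 was not tested against that rate. In bPYX+GFP rats *Flt4* was highest in rat 57 (27.4 normalized read-pairs) and *Bcl6b* was lowest in the same rat (225). *Tie1* was lowest in rat 52 among bPYX+GFP rats (90.1) and in rat 40 among bPYX+NT3 rats (88.8). *Cdh5* was highest in rat 42 among naïve rats (526). *Sox18* was highest in rat 52 among bPYX+GFP rats (12.7), from 10 counts.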

How the results depend on the processing

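The log2 fold changes of the 7 general members tested kept their direction in 3 comparisons with the likelihood ratio test, DESeq2, its size factors, no filter, filterByExpr, 1 fit over the 3 groups, the no-feature covariate and the replicate block. Those of *Flt4* and *Bcl6b* did too, but these genes were picked for their rise in the same counts, so that their direction against naïve carries no support. *Tie1* in bPYX+NT3 against naïve rats (0.29) was called with DESeq2 (unadjusted p = 0.0457), its size factors (unadjusted p = 0.0477) and 1 fit over the 3 groups (unadjusted p = 0.0450). With library size alone *Tie1* was not called in bPYX+GFP against naïve rats (0 of 7 members called) and was 0.022 between the injured groups. With the no-feature covariate 848 genes and 2 members (*Tie1* and *Egfl7*) were called in bPYX+GFP against naïve rats, and without the filter 315 genes were called between the injured groups. Without rats 57 and 11 the calls were 595, 365 and 1462 genes and 0, 2 and 0 members in the 3 comparisons, and *Tek* was 0.048 in bPYX+GFP against naïve rats and *Tie1* 0.011 and *Cdh5* 0.010 between the injured groups.

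Leaving out each rat in turn gave 272 to 595, 365 to 1387 and 95 to 2291 genes called (fewest without rats 5, 11 and 11, most without rats 57, 23 and 57) and 0 to 3, 1 to 5 and 0 to 2 members (most without rats 42, 42 and 40). The log2 fold change of *Tek* ran from -0.052 to 0.048 in bPYX+GFP against naïve rats and from -0.0057 to 0.12 between the injured groups, where *Kdr* ran from -0.039 to 0.085, *Tie1* from -0.091 to 0.069 and *Cdh5* from -0.17 to 0.025.

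Grouping the rats by the samples to which their single count files are attached, which goes against the table heading, called 174 and 330 genes against naïve and 2 and 4 members. The log2 fold changes in bPYX+GFP against naïve were -0.20 (*Flt1*), -0.10 (*Kdr*), -0.37 (*Flt4*), -0.24 (*Tie1*), -0.054 (*Cdh5*), -0.19 (*Pecam1*), -0.67 (*Egfl7*) and -0.19 (*Bcl6b*). In bPYX+NT3 against naïve they were -0.29, -0.0077, -0.71, -0.40, -0.23, -0.43, -1.09 and -0.45 in the same order, and -0.13 for *Tek*. Between the injured groups they were -0.091 (*Flt1*), -0.34 (*Flt4*), -0.12 (*Tek*), -0.23 (*Pecam1*) and -0.42 (*Egfl7*).

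Whether the replicate numbers of the labels pair the rats is not stated, and the data do not settle it. Correlations of same-numbered rats ranged from -0.37 to 0.32 for bPYX+GFP against naïve and from -0.30 to 0.53 for bPYX+NT3 against naïve rats. Between the injured groups they ranged from -0.40 to 0.50, and 1, 5 and 3 of 12 rats were best matched by their own number. The main fits, without a block, called 377, 703 and 201 genes. The replicate block gave 316, 2962 and 130 genes and 1, 3 and 0 members called, with *Tie1* at unadjusted p = 0.0412 in edgeR in bPYX+NT3 against naïve rats. Low counts limit *Flt4* and *Sox18*. Causes of these changes were not tested.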

Other observations

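Markers of dividing cells and of glia gave calls that belong to no vessel gene. *Aurkb*, a kinase of mitosis, averaged 19.6 ± 10.5 normalized read-pairs for naïve, 10.1 ± 3.88 for bPYX+GFP and 17.1 ± 4.10 for bPYX+NT3 rats (SD, n = 6), with a log2 fold change of 0.74 (SE 0.26) between bPYX+NT3 and bPYX+GFP rats in edgeR (unadjusted p = 0.0152, adjusted p = 0.851). *Kcnj10*, a potassium channel of satellite glia, had a log2 fold change of 0.42 (SE 0.15) in that comparison (unadjusted p = 0.0154, adjusted p = 0.851).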
